A study of Rattus norvegicus with 2 samples.

Results

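Cholesterol synthesis and fatty acid desaturation are described here through 9 rat genes, all of which were listed among the 7803 genes with a usable identifier. Hmgcs1, Mvk, Sqle and Lss encode enzymes of sterol synthesis, and Insig2 encodes the sterol sensor of the endoplasmic reticulum. Fasn, Mid1ip1, Scd and Scd2 belong to fatty acid synthesis and desaturation. The genes were chosen by their place in these pathways with their values in the same 2 libraries already known, both large and small differences included. Their log2 ratios are therefore a description, and nothing is tested on them.

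RNA was sequenced from H9c2 cells, a myoblast line cloned from embryonic rat heart. The high phosphate culture was exposed to 2.5 mM phosphate and the control culture to 0.9 mM phosphate, both for 12 h in medium without serum, after growth with serum. There was 1 library per phosphate level, so no difference below has a replicate check, an error or a p-value. The values are FPKM, fragments relative to transcript length and to the number mapped, as the authors deposited them without the counts behind them, so the depth is unknown. The listed FPKM summed to 346857 in high phosphate and 307622 in control. Of the muscle and mesenchymal genes looked at for the label, desmin (Des) was listed at 153.3 FPKM in high phosphate and 128.5 FPKM in control, and Acta2 at 2651 FPKM in high phosphate and 1647 FPKM in control. Myod1 had 1.59 FPKM in high phosphate and 6.11 FPKM in control, and Myog 0.06 FPKM in high phosphate and 0.13 FPKM in control. S100a4 was listed at 3249 FPKM in high phosphate and 3291 FPKM in control. Col3a1 had 844 FPKM in high phosphate and 489 FPKM in control. The leukocyte gene Ptprc was listed at 0 in both, and the cardiac genes Tnnt2, Actc1 and Myh6 were not analysed here.

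Cells make cholesterol from acetyl-CoA through mevalonate, squalene and lanosterol. When membrane sterols are low, the transcription factor SREBP2 is carried by its escort SCAP to the Golgi, is cleaved there and switches on these enzymes and the LDL receptor. INSIG proteins hold SCAP and SREBP in the endoplasmic reticulum when sterols are plentiful. SREBP1 acts in the same way on fatty acid synthesis and on stearoyl-CoA desaturases, which place a double bond in saturated fatty acids and also respond to other lipid-sensing factors. Medium without serum holds no lipoprotein cholesterol, and this applied to both cultures.

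In the high phosphate library 5 of the 9 genes, chosen with these values known, were listed more than 2-fold higher than in the control. The share of all genes that far apart in listed FPKM was not computed, so this count is only a description. The 5 genes belonged to both pathways: the sterol enzymes Hmgcs1 and Sqle, the sensor Insig2 and the desaturases Scd and Scd2. Mvk and Lss were slightly higher, and the fatty acid synthase gene Fasn and Mid1ip1, whose product acts on acetyl-CoA carboxylase, were lower. Among these 9 chosen genes, the difference did not follow the border between sterol and fatty acid genes. The longer pathway lists described below did differ there once the chosen genes were left out. At least 1.5-fold higher were 7 of 9 remaining sterol synthesis genes and 0 of 7 remaining fatty acid genes, against 7.21% of all genes compared. In RNA from a whole culture, more cells with a transcript and more of it per cell cannot be told apart.

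Differences are given as log2((high phosphate FPKM + 1)/(control FPKM + 1)), a scale that understates differences of low values. Genes averaging at least 1 FPKM over both libraries are called measured, and all 9 genes were above 1 FPKM in each library. On this scale the same 5 of 9 genes were at least 2-fold higher and 0 were at least 2-fold lower. Over all 4366 measured genes, 1.76% were at least 2-fold higher and 0.870% at least 2-fold lower in high phosphate. Since the genes were chosen with these ratios known, their share is not a result about them.

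**Figure D1:**
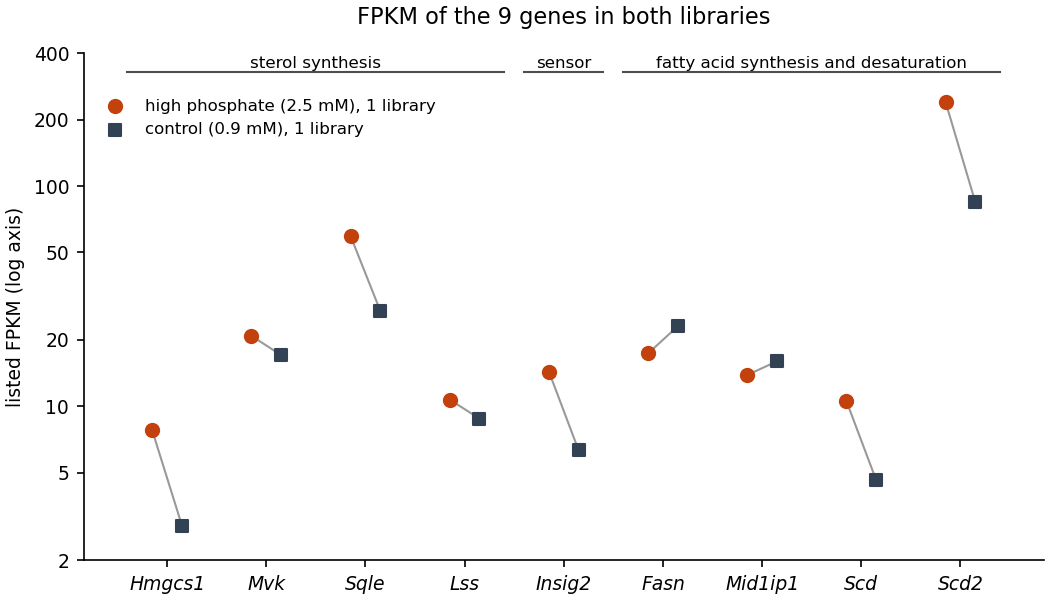
Listed FPKM of the 9 genes (log axis) in the high phosphate library (circles) and in the control library (squares), with lines joining the values of 1 gene. Hmgcs1, Sqle, Insig2, Scd and Scd2 lie more than 2-fold higher in high phosphate, whereas Fasn and Mid1ip1 lie lower, and each point is 1 library with no error.

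In the mevalonate steps, Hmgcs1 (Entrez 29637), the cytosolic HMG-CoA synthase, was listed at 7.77 FPKM in high phosphate and 2.87 FPKM in control. The FPKM ratio was 2.71 and the log2 ratio 1.18, the widest among the sterol genes, although Hmgcs1 had the lowest level of the 9 genes in each library. Mvk (81727), the kinase that phosphorylates mevalonate, was listed at 20.9 FPKM in high phosphate and 17.1 FPKM in control, with a log2 ratio of 0.28. Hmgcs1 thus stood at 0.372 of the Mvk level in high phosphate and at 0.168 in control, both per length.

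The squalene steps showed the same contrast between neighbouring enzymes. Sqle (29230), the squalene epoxidase, which makes the substrate of Lss, was listed at 59.3 FPKM in high phosphate and 27.1 FPKM in control, with a log2 ratio of 1.10. Lss (81681), the lanosterol synthase, was listed at 10.7 FPKM in high phosphate and 8.78 FPKM in control, with a log2 ratio of 0.26. The Sqle level was 5.53 times that of Lss in high phosphate and 3.09 times in control.

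Insig2 (288985) was listed at 14.4 FPKM in high phosphate and 6.3 FPKM in control, an FPKM ratio of 2.28 and a log2 ratio of 1.07. This gene has 8 RefSeq transcripts in the gene table used for names, more than any other of the 9 genes. The sources used here do not give how fragments were shared among its transcripts. Insig1, its close relative and a classical SREBP target, was not analysed here.

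Among fatty acid genes, Fasn (50671), which builds palmitate from acetyl-CoA and malonyl-CoA, was listed at 17.4 FPKM in high phosphate and 23.1 FPKM in control, with a log2 ratio of -0.39. Mid1ip1 (404280), which promotes polymerisation of acetyl-CoA carboxylase, was listed at 13.9 FPKM in high phosphate and 16.0 FPKM in control, with a log2 ratio of -0.19. Both were lower in the high phosphate library, by less than 2-fold. The FPKM of this pair summed to 31.2 in high phosphate and 39.1 in control.

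The desaturases stood on the other side. Scd2 (83792), the most abundant of the 9 genes, was listed at 240.8 FPKM in high phosphate and 84.5 FPKM in control, with a log2 ratio of 1.5. Scd (246074), the rat counterpart of mouse Scd1, was listed at 10.6 FPKM in high phosphate and 4.62 FPKM in control, with a log2 ratio of 1.04. Together they summed to 251 FPKM in high phosphate and 89.1 FPKM in control, a ratio of 2.82. Scd2 made up most of that sum in both libraries, at 22.8 times the Scd level in high phosphate and 18.3 times in control. The Scd2 level was 13.9 times that of Fasn in high phosphate and 3.66 times in control. Scd and Scd2 are close paralogs, and the sources used here do not give how reads matching both were counted, so the values of each are less certain than their sum.

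By level, the order in high phosphate was Scd2, Sqle, Mvk, Fasn, Insig2, Mid1ip1, Lss, Scd and Hmgcs1. In control it was Scd2, Sqle, Fasn, Mvk, Mid1ip1, Lss, Insig2, Scd and Hmgcs1. Scd2 and Sqle were highest and Scd and Hmgcs1 lowest in both libraries, while Insig2 stood above Mid1ip1 and Lss in high phosphate and under both in control. With 1 library each, the spread that would separate neighbours in these orders is unknown.

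Promoter windows of 4 genes are shown: Hmgcs1, Scd2 and Scd because they were at least 2-fold higher, and Mvk because it belongs to the same pathway as Hmgcs1 and differed little. Each is the 250 bases before the gene's start in RefSeq, 5′ to 3′ on the gene's strand. The windows come from the assembly GRCr8, whereas the authors' notes name Rnor_6.0, so genes were matched by identifier and symbol and no position was taken over. Capitals mark matches on either strand to the NF-Y box CCAAT and the Sp1 box GGGCGG, sequences bound by factors that act beside SREBP at sterol genes.
Hmgcs1 (GRCr8 chr2:53382054-53382303, plus strand): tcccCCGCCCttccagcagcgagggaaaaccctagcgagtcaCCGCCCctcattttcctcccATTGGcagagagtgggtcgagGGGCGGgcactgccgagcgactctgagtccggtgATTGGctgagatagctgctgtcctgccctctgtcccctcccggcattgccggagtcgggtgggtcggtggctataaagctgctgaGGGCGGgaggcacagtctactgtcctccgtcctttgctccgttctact
Mvk (GRCr8 chr12:47819504-47819753, minus strand): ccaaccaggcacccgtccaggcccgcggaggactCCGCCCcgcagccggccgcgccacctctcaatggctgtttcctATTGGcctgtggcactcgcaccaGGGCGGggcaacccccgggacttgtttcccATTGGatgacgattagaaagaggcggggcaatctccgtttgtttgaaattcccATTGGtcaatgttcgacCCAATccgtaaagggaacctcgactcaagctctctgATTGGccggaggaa
Scd2 (GRCr8 chr1:253118127-253118376, plus strand): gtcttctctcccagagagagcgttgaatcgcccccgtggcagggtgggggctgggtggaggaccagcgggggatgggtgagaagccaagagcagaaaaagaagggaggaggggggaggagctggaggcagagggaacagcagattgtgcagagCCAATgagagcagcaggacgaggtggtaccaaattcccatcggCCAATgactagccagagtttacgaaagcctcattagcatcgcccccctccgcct
Scd (GRCr8 chr1:253231732-253231981, minus strand): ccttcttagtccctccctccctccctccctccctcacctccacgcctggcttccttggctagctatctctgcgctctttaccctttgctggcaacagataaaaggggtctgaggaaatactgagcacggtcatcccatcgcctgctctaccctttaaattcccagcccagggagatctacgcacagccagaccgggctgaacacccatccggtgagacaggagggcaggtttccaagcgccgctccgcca

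Windows were found for 7 of the 9 genes; Sqle and Fasn had none. CCAAT was found in 5 of the 7, 5 times in Mvk, 2 times each in Hmgcs1 and Scd2 and 1 time each in Lss and Insig2. Of all 33469 windows in the table, from 27457 genes, 34.0% held CCAAT, as did 37.4% of the 3770 windows of measured genes. The Sp1 box GGGCGG was found in 4 of the 7 (Hmgcs1, Lss, Mid1ip1 and Mvk), against 60.3% of the windows of measured genes and 30.5% of all windows, and the Scd window held neither. The sterol element core TCACNCCAC was in 0 of the 7, in 1.17% of the windows of measured genes and in 0.974% of all windows. It was also in 0 of the 10 windows of measured sterol synthesis genes. So rare a sequence is seldom met in 7 windows, so its absence does not show that these promoters lack sterol elements. The E-box CACGTG was in 0 of the 7, in 9.05% of the windows of measured genes and in 5.59% of all windows. The hypoxia element core ACGTG, which every E-box contains, was in 1 of the 7 (Insig2), in 24.6% of the windows of measured genes and in 16.6% of all windows. Mvk, with the most CCAAT boxes, had a log2 ratio of 0.28, and Scd, with no match, 1.04. Hmgcs1, with 2 CCAAT boxes and 4 Sp1 boxes, had 1.18. Whether the matches go with the ratios was not tested. Many genes have more than 1 start, and the starts used for Insig2, Hmgcs1, Scd and Mid1ip1 lie 12839, 2847, 370 and 139 bases inside the outermost start in the gene table. Sequence before those outer starts was not searched, so the lack of a match for Scd covers 1 of its starts. These matches describe letters in the windows and not binding.

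Read against genes of similar level, the 5 genes stood outside the central 95% of log2 ratios. Because they were chosen with these ratios known, the ranges and ranks here only place them. For 670 measured genes averaging 5 to 10 FPKM this range ended at 0.95, and 2.09% were at least 2-fold higher. Hmgcs1 and Scd lay above it, and Lss lay inside. For 1646 genes of 10 to 50 FPKM it ran from -0.54 to 0.75 and 1.09% were at least 2-fold higher. Sqle and Insig2 lay above, while Mvk, Mid1ip1 and Fasn lay inside. For 904 genes at or above 50 FPKM it ended at 0.79, under the 1.5 of Scd2. By rank among the 4366 ratios, counted from the highest, Scd2 was 29th, Hmgcs1 51st, Sqle 58th, Insig2 66th and Scd 70th. Mvk was 885th, Lss 947th, Mid1ip1 3359th and Fasn 3989th.

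**Figure D2:**
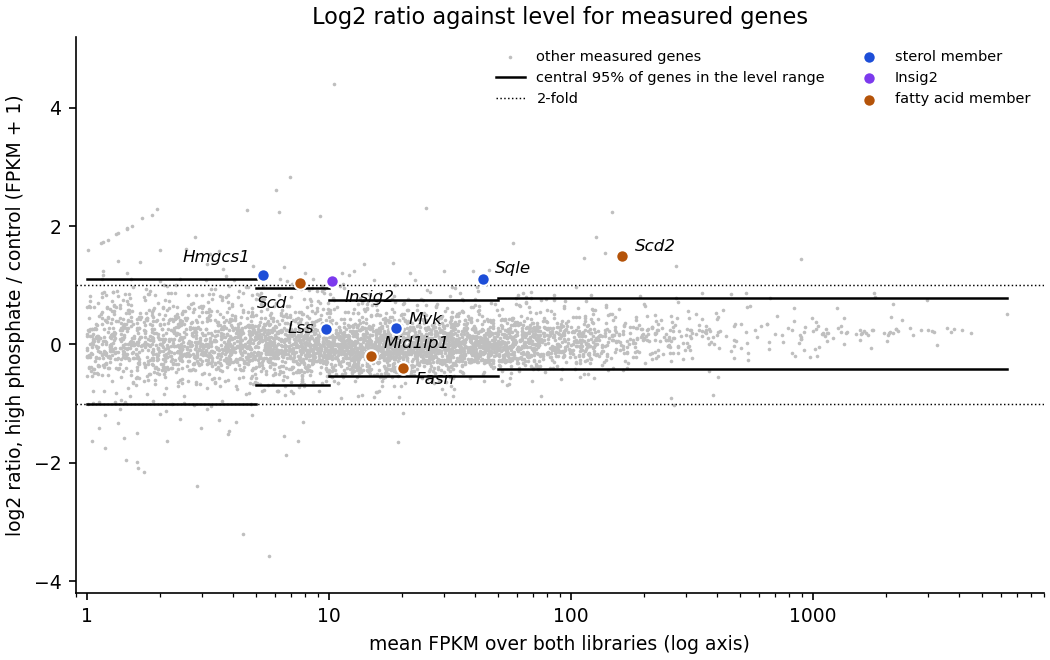
Log2 ratio of high phosphate over control on FPKM + 1 against mean FPKM (log axis) for the 4345 measured genes with a symbol; black bars give the central 95% of measured genes in 4 level ranges and dotted lines 2-fold. Scd2, Hmgcs1, Sqle, Insig2 and Scd lie above the upper bars, and Lss, Mvk, Mid1ip1 and Fasn lie between the bars.

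Set against each other, the sterol arm (Hmgcs1, Mvk, Sqle, Lss) had a median log2 ratio of 0.69 and the fatty acid arm (Fasn, Mid1ip1, Scd, Scd2) of 0.42, a difference of 0.27. The sterol genes ranged from 0.26 to 1.18, within the range of the fatty acid genes, from -0.39 to 1.5. The sterol arm had 4 genes higher and the fatty acid arm 2 higher and 2 lower. Within the fatty acid arm, Scd and Scd2 had a mean log2 ratio of 1.27, and Fasn and Mid1ip1 of -0.29. Within the sterol arm, Hmgcs1 (1.18) and Sqle (1.10) lay above Mvk (0.28) and Lss (0.26). These pairs were formed with the ratios known, so their distance is not set against the difference between the arms. With Insig2 counted as a sterol gene the difference between the arms was 0.65, since with 4 or 5 genes the median moves with 1 gene.

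The other enzymes of sterol synthesis were read from lists of pathway genes. Of 23 genes written for the mevalonate, squalene and later steps, 16 were listed and 13 were measured. All 13 were higher in high phosphate, with a median log2 ratio of 0.76, while 50.5% of all measured genes were higher, with a median of 0.00. Among listed genes under a mean of 1 FPKM, Hsd17b7 was lower, at 0 in high phosphate and 1.2 FPKM in control. Erg28 and Dhcr7 were slightly higher there. With no filter on level the median was 0.68. At least 1.5-fold higher were 9 of the 13, against 7.21% of all measured genes, and 2 of the 13, Hmgcs1 and Sqle, were at least 2-fold higher. Without Hmgcs1, Mvk, Sqle and Lss, 9 genes were left, of which 9 were higher and 7 at least 1.5-fold higher. Mvd and Sc5d were not analysed here.

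Around Hmgcs1 and Mvk, the thiolase Acat2 had 17.6 FPKM in high phosphate and 11.2 FPKM in control (log2 ratio 0.61). The phosphomevalonate kinase Pmvk, next after Mvk, had 21.4 FPKM in high phosphate and 15.2 FPKM in control (0.47). The isomerase Idi1 had 7.0 FPKM in high phosphate and 3.65 FPKM in control (0.78), and the farnesyl diphosphate synthase Fdps 98.6 FPKM in high phosphate and 66.5 FPKM in control (0.56). Each of the 4 lay between Mvk and Hmgcs1 in log2 ratio.

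Before Sqle, the squalene synthase Fdft1 had 15.6 FPKM in high phosphate and 7.56 FPKM in control (0.96). Its FPKM ratio was 2.07, which came under 2-fold after adding 1. After Lss, the lanosterol demethylase Cyp51 had 50.9 FPKM in high phosphate and 29.6 FPKM in control (0.76), and the methyl sterol oxidase Msmo1 54.6 FPKM in high phosphate and 27.5 FPKM in control (0.96). Nsdhl, which acts with Msmo1, had 17.3 FPKM in high phosphate and 9.66 FPKM in control (0.78), and the sterol isomerase Ebp 4.79 FPKM in high phosphate and 2.44 FPKM in control (0.75). Lss therefore had the lowest ratio of the 13, with higher ratios on either side of it in the pathway.

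**Figure D3:**
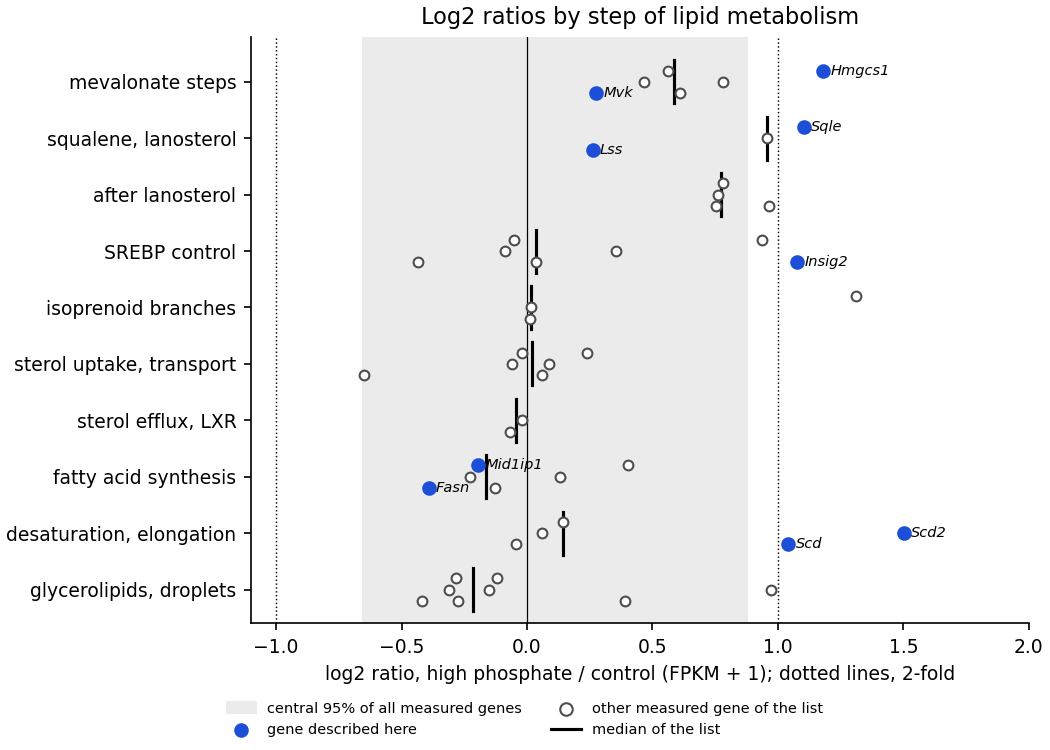
Log2 ratio of high phosphate over control on FPKM + 1 for the measured genes of 10 lists of lipid metabolism, 1 row per list; filled points are the 9 genes, open points other genes, black bars list medians, the grey band the central 95% of all measured genes and dotted lines 2-fold. All points of the 3 sterol synthesis rows lie above 0, and in the fatty acid rows Scd and Scd2 lie apart from the rest.

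The fatty acid lists did not show this pattern. Of 33 genes written for synthesis, desaturation and elongation, 13 were listed and 11 measured, 6 higher and 5 lower. Their median log2 ratio was 0.06. At least 1.5-fold higher were 2 of the 11, Scd and Scd2, against 7.21% of all measured genes. By any amount 50.5% of all measured genes were higher. Without Fasn, Mid1ip1, Scd and Scd2, 4 genes were higher and 3 lower, and 0 differed by 1.5-fold. For so few genes these counts lie near the shares over all measured genes and are not a result about them. In synthesis, the citrate carrier Slc25a1 was highest, with 59.0 FPKM in high phosphate and 44.3 FPKM in control (0.40). ATP citrate lyase, Acly, had 13.7 FPKM in high phosphate and 12.4 FPKM in control (0.13), and its ratio turned to lower when both libraries were scaled to the same sum. The mitochondrial synthase Oxsm had 1.28 FPKM in high phosphate and 1.67 FPKM in control (-0.23). None of these 3 genes differed by 1.5-fold. Among elongation enzymes, the dehydratase Hacd3 was lowest, with 25.6 FPKM in high phosphate and 26.5 FPKM in control (-0.05). The desaturases Fads1 and Fads2 and the elongase Elovl6 were not analysed here.

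Genes that control SREBP were mixed. Of 7 measured genes 4 were higher and 3 lower, where 50.5% of all measured genes were higher. The median log2 ratio was 0.03, and Insig2 was the 1 gene at least 2-fold higher after adding 1, against 1.76% of all measured genes. Next to it stood Scap, the SREBP escort that INSIG proteins bind, with 12.9 FPKM in high phosphate and 6.23 FPKM in control. The FPKM ratio of Scap was 2.06 and the log2 ratio 0.94. Srebf2, named here after its values were seen, encodes SREBP2 and had 28.0 FPKM in high phosphate and 21.7 FPKM in control (0.35). At the lower end, the ubiquitin ligase gene Rnf145 had 34.7 FPKM in high phosphate and 36.9 FPKM in control (-0.09).

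Sterol uptake and transport lay near the background, with 3 of 6 measured genes higher and a median of 0.02. Npc2, a carrier of cholesterol in lysosomes, had 365.5 FPKM in high phosphate and 309.7 FPKM in control (0.24), and its partner Npc1 was lowest, with 7.06 FPKM in high phosphate and 11.7 FPKM in control (-0.65). The other genes named at the ends of the list, Tmem97 and Lipa, had log2 ratios of 0.09 and -0.06, and that of Tmem97 turned to lower at the same sum. The LDL receptor was not analysed here. In sterol efflux and LXR signalling 2 genes were measured, Nr1h2 (-0.02) and Apoe (-0.07).

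Of the branches that use mevalonate for isoprenoids, 3 genes were measured. Fntb, the beta subunit of farnesyltransferase, had 9.77 FPKM in high phosphate and 3.34 FPKM in control (1.31), a wider ratio than any sterol enzyme measured. Fnta, the alpha subunit of the same enzyme, had 34.6 FPKM in high phosphate and 34.3 FPKM in control (0.01), and its sign changed in 3 of the 4 rescalings.

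Because the listed FPKM summed to 1.13 times as much in high phosphate as in control, the 2-fold calls were also read after rescaling. At equal sums the log2 ratios of all measured genes had a median of -0.15, against 0.00 as deposited. Hmgcs1 (1.03) and Scd2 (1.33) were then still at least 2-fold higher, whereas Sqle (0.93), Insig2 (0.91) and Scd (0.88) were under 2-fold. All 13 measured sterol synthesis genes were higher in each of the 4 rescalings, while 32.2% of all measured genes were higher at the same sum. Mvk and Lss had their smallest log2 ratios there, 0.11 and 0.10.

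**Figure D4:**
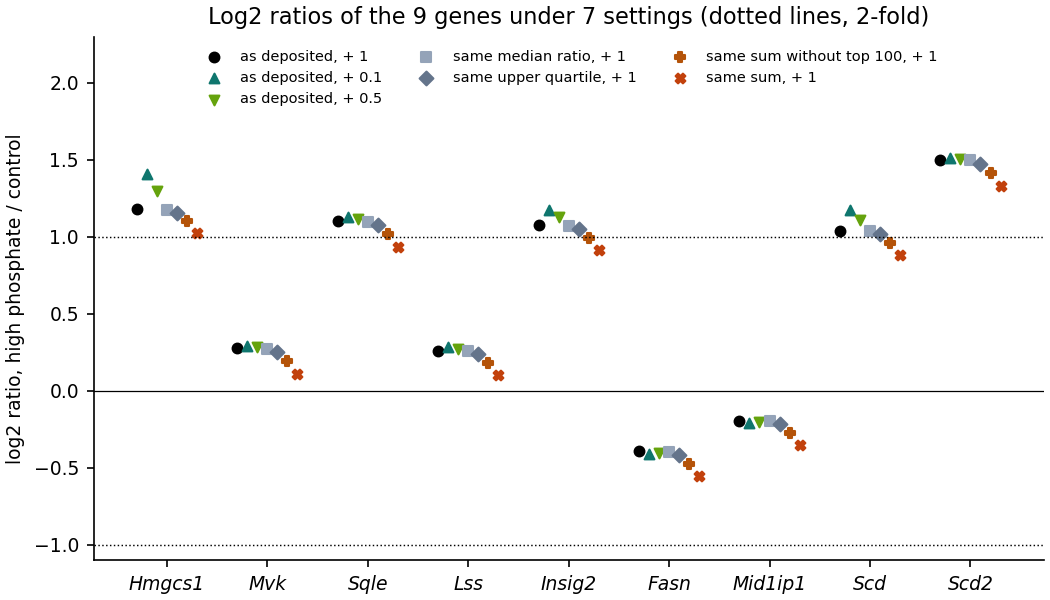
Log2 ratio of high phosphate over control for the 9 genes under 7 settings: FPKM as deposited with 1, 0.1 or 0.5 added, and 4 rescalings with 1 added. Hmgcs1 and Scd2 are above the dotted 2-fold line in all 7, Sqle in 6, Insig2 and Scd in 5, and no gene changes sign.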

How the data were processed

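The 2 libraries, 1 per phosphate level, were read from the authors' deposited tables. Their unit is FPKM, per the file headers, rounded by the authors to 2 decimals. Per the submitters' processing notes the build was Rnor_6.0 and the tools Cuffdiff, Cufflinks 2.2.1, TopHat2 2.1.1 and bcl2fastq. The sources used here do not give the role of each tool, the annotation, strand and multiple-match settings or any scaling between libraries. Low values step by 0.01, so whole reads could not be recovered.

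Identifiers of up to 9 digits (7803 of 8039) were kept, and 7746 matched a symbol in an NCBI table for GRCr8. Genes averaging at least 1 FPKM (4366) were compared by log2 ratio after adding 1, without any test. The 9 genes, 10 pathway lists, thresholds and alternatives were chosen with earlier results of these data known. Named besides the 9 genes are all measured sterol synthesis genes and, in each other list, the highest and lowest ratio (2 at each end from 6 measured genes). Some genes that this selects are not reported here. Alternatives were 2 pseudocounts, 4 rescalings, 3 filters, 2 fold thresholds and other ways to form arms and lists. The calculations were tested on simulated data with known folds. Python 3.11.15, numpy 2.4.6, pandas 2.3.3 and matplotlib 3.10.9 were used.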

Additional observations from a re-analysis of the deposited data

How the results depend on the processing

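The count of 5 of the 9 genes at least 2-fold apart was also 5 with pseudocounts of 0.1 and 0.5, at the same median ratio, at the same upper quartile and by a 1.5-fold threshold. It was 2 at the same sum, 3 at the same sum without the 100 most abundant genes and 0 by a 3-fold threshold. Of all 4366 measured genes, 77 were at least 2-fold higher and 38 lower as deposited. At the same sum 54 were higher and 56 lower, and without the 100 most abundant genes 65 were higher and 44 lower. By the 1.5-fold threshold 7.21% were higher. Shares over all measured genes were not computed for the pseudocounts or the 3-fold threshold. The difference between the sterol and fatty acid arms, 0.27, was 0.22 and 0.24 with pseudocounts of 0.1 and 0.5, 0.26 at the same sum with or without the 100 most abundant genes, 0.22 for means and 0.65 with Insig2 among the sterol genes. The sterol list median, 0.76, was 0.84 and 0.81 with pseudocounts of 0.1 and 0.5, 0.61 at the same sum, 0.68 without the 100 most abundant genes, 0.74 at the same upper quartile, 0.68 with no filter and 0.77 from 5 FPKM. The fatty acid list median, 0.06, was -0.10 at the same sum, -0.022 without the 100 most abundant genes, 0.037 at the same upper quartile, -0.029 with no filter and 0.10 from 5 FPKM, so its sign depended on the setting. From 10 FPKM and without the genes described, both list medians were 0.76 and 0.06. For the 38 genes selected, under 6 settings, 228 ratios in all, 0 called ratios changed sign, 5 called ratios came under 2-fold (Insig2 and Scd under both sums, Sqle under the same sum) and 5 others passed it (Fdft1 and Acsl1 with both pseudocounts, Scap with 0.1). The causes were not tested. The unknown depth and the single library per phosphate level limit all values.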

Other observations

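Of 8 measured genes that activate fatty acids and build or store glycerolipids, 2 were higher and 6 lower in the high phosphate library, 0 of them at least 1.5-fold lower. Their median log2 ratio was -0.21. Of all measured genes 50.5% were higher as deposited and 32.2% at the same sum. Acsl1, an acyl-CoA synthetase, had 6.32 FPKM in high phosphate and 2.73 FPKM in control (FPKM ratio 2.32, log2 ratio 0.97). The lipid droplet coat gene Plin2 had 8.35 FPKM in high phosphate and 6.14 FPKM in control (0.39). Lowest were another droplet coat gene, Plin3, with 12.4 FPKM in high phosphate and 16.9 FPKM in control (-0.42), and Dgat1, an enzyme of triglyceride synthesis, with 25.7 FPKM in high phosphate and 32.1 FPKM in control (-0.31).

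Several pathway genes were listed near 0, among them enzymes that cells use widely, and a listed 0 can be a failed estimate. Acaca, which makes malonyl-CoA for Fasn, was listed at 0.11 FPKM in high phosphate and 0.23 FPKM in control, and Srebf1, which encodes SREBP1, at 0.51 FPKM in high phosphate and 0 in control. Dhcr7, which acts late in cholesterol synthesis, was listed at 0.11 FPKM in high phosphate and 0 in control. Hsd17b7, another sterol enzyme, was listed at 0 in high phosphate and 1.2 FPKM in control, and Erg28 at 0.31 FPKM in high phosphate and 0.25 FPKM in control. These 3 sterol genes were under a mean of 1 FPKM and not among the 13 measured, and Abca1, a sterol exporter, was listed at 0 in both libraries. These genes were picked with their values in view.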
